A study of Mus musculus with 6 samples.

Results

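The genes described here are 41 mouse genes of DNA replication and S phase, the part of the cell cycle in which the genome is copied. They were taken by name: each NCBI gene number in the files was paired with its mouse symbol, and the 41 listed symbols were kept out of 16871 gene numbers. All 41 were present and all passed the filter on low counts, so every one was among the 11809 genes tested. The choice used no measured value of these libraries, but earlier results of the same data were known when it was made.

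The cells were macrophages derived in culture from mouse bone marrow. The C57BL/6 donors were 8 weeks old, the culture lasted 7 days, and cells of all 6 libraries were then given oxLDL, oxidised low-density lipoprotein, which turns macrophages into lipid-laden foam cells. The control group (LKO, 3 libraries) carried a background knockout that both groups share. The other group (DKO, 3 libraries) carried the same background knockout together with a knockout of acetaldehyde dehydrogenase 2 (ALDH2), a mitochondrial enzyme that oxidises aldehydes. There were no cells without oxLDL and none without the background knockout, so the comparison shows only what differed with ALDH2 loss on that background. The labels name no allele, oxLDL dose or exposure time, and they do not state that the 3 libraries of a group are from different mice. The p-values therefore measure the spread between these libraries, which may be technical.

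The libraries held between 10760625 and 10987584 expected counts. The targeted gene Aldh2 was at 249, 239 and 236 FPKM in LKO and at 7.00, 7.06 and 7.34 in DKO, so 2.96% of the LKO level was left (log2 fold change -5.01 ± 0.06, edgeR adjusted p = 4e-24).

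Before a cell divides it copies each stretch of its genome once. The origin recognition complex, CDC6 and CDT1 load the ring-shaped MCM helicase onto DNA, CDC45 and the GINS complex turn it on, and polymerases follow, held on the template by the sliding clamp PCNA. Ribonucleotide reductase and partner enzymes make the deoxynucleotides. Most of these genes are classical targets of the E2F transcription factors, which the retinoblastoma protein holds back until cyclin-dependent kinases release them. Macrophages grown from marrow divide in response to growth factor and leave the cell cycle as they mature, so the level of these transcripts in a culture is commonly read as a sign of proliferation.

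Promoter sequences are shown first, because the E2F motif is a feature that the choice of genes by name did not use. The promoter table, from RefSeq on build GRCm38.p6, holds 250 bases before and 50 bases after each transcript start. It has an entry for 33 of the 41 genes. The E2F motif searched was TTTCCCGC, TTTCGCGC, TTTGCCGC or TTTGGCGC on either strand. It was found for 13 of the 33 genes (39.4%), against 2.60% of all 27025 genes with an entry and 4.75% of the tested ones. In related lists of other replication and cell-cycle genes it was found for 23.4% of the 111 genes with an entry. Of the other motifs searched, the CHR element TTTGAA was in 12.1% of the 33 genes and 14.7% of tested genes, and the CCAAT box (CCAAT) in 60.6% and 43.2%. Counted by window, 34.2% of the 38 windows of replication genes held the E2F motif, against 2.26% of all 32851 windows. The 4 stretches below are 100 bases long and hold no exon annotated in GENCODE M21; the first 3 belong to genes that were lower in DKO and the fourth to Mcm6, which was not. Capitals mark the E2F motif, read on either strand, and 2 matches that overlap run together.
Mcm5 (chr8:75109312-75109411, plus strand): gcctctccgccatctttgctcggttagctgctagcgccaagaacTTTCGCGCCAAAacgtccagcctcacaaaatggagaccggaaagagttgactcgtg
Uhrf1 (chr17:56304082-56304181, plus strand): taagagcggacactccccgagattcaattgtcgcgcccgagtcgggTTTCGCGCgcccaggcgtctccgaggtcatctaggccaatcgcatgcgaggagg
Pola1 (chrX:93632240-93632339, minus strand): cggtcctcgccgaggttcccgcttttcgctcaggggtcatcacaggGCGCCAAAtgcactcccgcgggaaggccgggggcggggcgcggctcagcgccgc
Mcm6 (chr1:128359731-128359830, minus strand): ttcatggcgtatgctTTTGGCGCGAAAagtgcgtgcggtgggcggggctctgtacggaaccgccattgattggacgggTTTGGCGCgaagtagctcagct

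For 3 more genes that were lower in DKO, a stretch of 30 bases around the motif is shown.
Cdc6 (chr11:98908002-98908031, plus strand): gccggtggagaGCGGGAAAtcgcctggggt
Mcm3 (chr1:20820266-20820295, minus strand): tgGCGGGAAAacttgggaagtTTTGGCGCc
Lig1 (chr7:13278841-13278870, plus strand): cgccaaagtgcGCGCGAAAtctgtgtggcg

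The matches lay on both sides of the transcript start. Counted from the transcript start, those of Mcm5 began at -153 and -149 and that of Uhrf1 at -185, while those of Mcm3 began at 20 and 39 and that of Lig1 at 27. Of the 13 genes that were lower in DKO, 12 had a promoter entry and 7 of these held the motif (58.3%). Of the 28 that did not pass, 21 had an entry and 6 held it (28.6%), among them Orc1, Cdt1 and Rfc3. The median log2 fold change was -0.26 for the 13 genes with the motif and -0.23 for the 20 without it. A match is a string of letters and not a measured binding site, and factor binding was not measured in these cells.

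**Figure D1:**
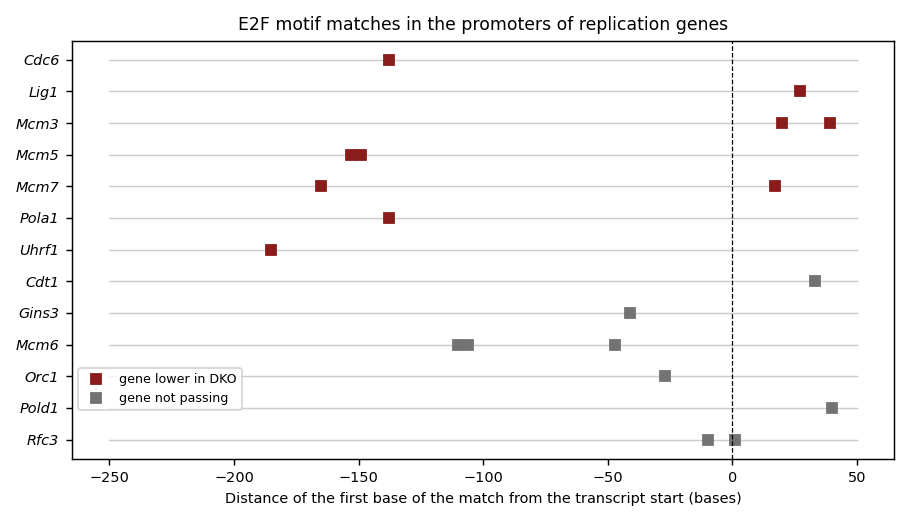
Distance, in bases, of each E2F motif match from the transcript start for the 13 replication genes with a match (squares; grey lines span the window searched, dashed line marks the start). Matches of the 7 genes lower in DKO (dark red) and of the 6 that did not pass (grey) lie on both sides of the start.

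Replication genes were lower in macrophages without ALDH2, by small amounts. Of the 41 genes, 13 fell, none rose and 28 did not pass an edgeR adjusted p of 0.05. The share that fell was 31.7%, against 6.88% of all 11809 genes tested. A rise was found for 7.42% of all genes, and a change in either direction for 14.3%. DESeq2 called 7 members lower (4.39% of all genes) and none higher (4.91%), and limma called 11 lower (5.32%) and none higher (5.24%). With edgeR, no member was called higher, and none had an unadjusted p under 0.05 in that direction (13.1% of all genes), while 19 had one in the lower direction (46.3%, against 12.7% of all genes). The point estimate was below 0 for 39 of 41 members, against 49.9% of all genes. The median log2 fold change of DKO over LKO was -0.23, a 1.17-fold lower level, while the median of all genes was 0.0002. The fall reached 1.5-fold in 3 genes, Cdc6, Uhrf1 and Rrm2. In RNA from a whole culture, fewer cells in S phase and less of these RNAs per cell cannot be told apart.

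The groups separated in the raw values of many members. Every DKO library was below every LKO library for 19 of 41 genes (46.3%, against 16.0% of all genes), including 6 that did not pass: Cdt1, Mcm4, Prim1, Rfc1, Rpa2 and Ccne2. Every DKO library was above every LKO library for 1 gene, Mcm6 (13.6% of all genes). The 41 genes held 0.0972% ± 0.00185 of a library's expected counts in LKO (SD, n = 3) and 0.0847% ± 0.00181 in DKO. The lowest value of a gene fell in DKO replicate 3 for 17 members, in DKO replicate 2 for 11 and in DKO replicate 1 for 7. Without DKO replicate 3 the number of members that fell was 8, where 4.60% of all genes fell, and the median log2 fold change was -0.20.

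**Figure D2:**
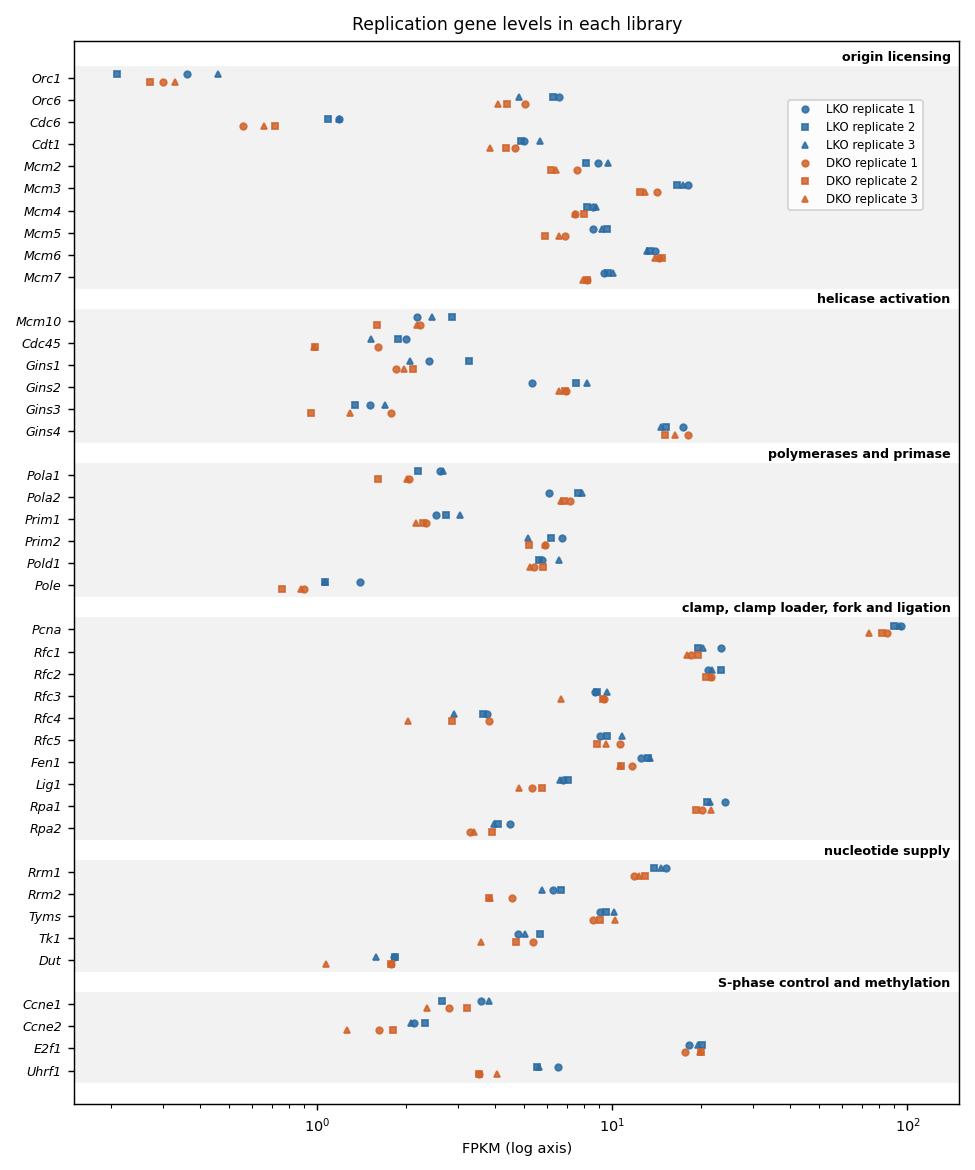
FPKM, on a log axis, of the 41 replication genes in each of the 6 libraries, grouped by role (blue, LKO; orange, DKO; marker shape gives the replicate). The orange points lie left of all blue points for 19 genes, and right of all of them for Mcm6.

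Of the genes that license origins, 5 of 10 fell (50%, against 6.88% of all genes). Cdc6, a loader that brings the MCM ring to an origin, stood at 1.18, 1.09 and 1.18 FPKM (reads scaled to transcript length and library size) in LKO and at 0.56, 0.72 and 0.66 in DKO, the largest fold of all 41 genes. All DKO values were below all LKO values. Its log2 fold change was -0.82 ± 0.18 (SE; edgeR adjusted p = 0.0025) on a mean of 44.7 counts per library. The call was lost when limma used a pseudocount of 0.1 (adjusted p = 0.0642) and after quantile normalization (adjusted p = 0.0689). Orc6, a subunit of the origin recognition complex, averaged 5.91 ± 0.957 FPKM in LKO against 4.51 ± 0.502 in DKO and did not pass (edgeR adjusted p = 0.0717). It did pass without LKO replicate 3 (adjusted p = 0.0216). Cdt1, the partner of CDC6, was at 5.19 ± 0.420 and 4.29 ± 0.403 FPKM (edgeR adjusted p = 0.18). Orc1, at 0.343 ± 0.126 and 0.300 ± 0.030 FPKM with a mean of 10.7 counts, was too low for a difference of this size to be seen: its fold of LKO over DKO was 1.14 with a 95% interval from 0.676 to 1.91.

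The 6 subunits of the MCM2-7 ring, the motor of the replicative helicase, did not move together. Mcm5 was at 8.59, 9.58 and 9.24 FPKM in LKO and at 6.92, 5.93 and 6.58 in DKO. Its log2 fold change was -0.48 ± 0.08 (edgeR adjusted p = 0.000151). Mcm3, the most abundant of the 6 in LKO, was at 18.02, 16.52 and 17.40 FPKM in LKO and 14.12, 12.36 and 12.86 in DKO, with a log2 fold change of -0.39 ± 0.07 (edgeR adjusted p = 0.000242). In both genes every DKO library lay below every LKO library. Mcm2 fell by 0.40 ± 0.09 on the log2 scale, from 8.95, 8.13 and 9.67 FPKM to 7.57, 6.18 and 6.42 (edgeR adjusted p = 0.00261). Limma run with no filter on low values did not make this call (adjusted p = 0.0896). Mcm7 fell by 0.24 ± 0.08, from 9.69 ± 0.347 to 8.14 ± 0.153 FPKM (edgeR adjusted p = 0.0442), close to the threshold. Leaving out 1 library ended the call in 5 of 6 cases: the adjusted p was 0.0984 when LKO replicate 2 was omitted, 0.13 for LKO replicate 3, 0.0889 for DKO replicate 1, 0.0987 for DKO replicate 2 and 0.142 for DKO replicate 3. It was also lost in DESeq2 (0.272) and with the replicate block (0.0634). Mcm4, at 8.53 ± 0.332 and 7.65 ± 0.318 FPKM, did not pass (edgeR adjusted p = 0.195).

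Mcm6 was the exception in the ring. It was at 13.9, 13.4 and 13.1 FPKM in LKO and at 14.4, 14.7 and 14.0 in DKO, so the DKO values were the higher ones without overlap. The difference did not pass (log2 fold change 0.11 ± 0.06, edgeR adjusted p = 0.262). Within each library, the ratio of Mcm6 FPKM to the mean FPKM of the other 5 subunits was 1.30, 1.29 and 1.19 in LKO and 1.63, 1.80 and 1.70 in DKO. The mean ratio went from 1.26 ± 0.0603 to 1.71 ± 0.0890 (SD, n = 3; exact two-sided permutation p = 0.1, the smallest that 3 against 3 libraries allow). This was 1 of 4 ratios between subunits, all chosen after the values were seen, and its Benjamini-Hochberg value over the 4 was 0.2. Mcm6 was higher and each of the other 5 lower in DKO without overlap, so the ratio had to separate the groups. Its p therefore adds nothing to the values of the single genes.

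**Figure D3:**
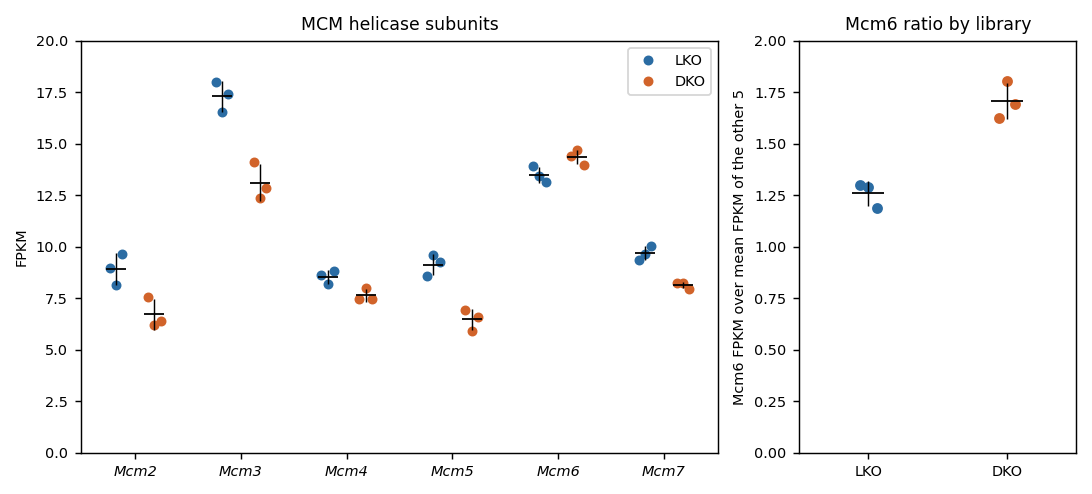
Left, FPKM of the 6 MCM ring subunits in each library; right, the ratio of Mcm6 FPKM to the mean FPKM of the other 5 subunits (points, libraries; line and bar, mean and SD, n = 3). Mcm6 alone stands higher in DKO than in LKO, and its ratio is between 1.63 and 1.80 in DKO and between 1.19 and 1.30 in LKO.

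Of the genes of helicase activation, 0 of 6 passed in edgeR (14.3% of all genes did), DESeq2 or limma. At an unadjusted edgeR p under 0.05, 2 were lower, Mcm10 and Cdc45 (12.7% of all genes were), and none was higher (13.1%). Cdc45, which rides with the MCM ring, was at 1.99, 1.87 and 1.52 FPKM in LKO against 1.60, 0.98 and 0.97 in DKO (log2 fold change -0.50 ± 0.23, edgeR adjusted p = 0.17). Its groups overlapped through DKO replicate 1, and without that library it passed (adjusted p = 0.0423). Mcm10, which helps to fire loaded helicases, averaged 2.49 ± 0.337 FPKM in LKO against 1.99 ± 0.350 in DKO (edgeR adjusted p = 0.172). The 4 GINS subunits differed in abundance: Gins4 was at 15.7 ± 1.48 FPKM in LKO, Gins2 at 7.02 ± 1.49, Gins1 at 2.57 ± 0.620 and Gins3 at 1.51 ± 0.175. Their log2 fold changes lay between -0.27 and 0.08, each with overlapping groups.

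Of the polymerase and primase genes, 2 of 6 fell (33.3%, against 6.88% of all genes). Pola1, the catalytic subunit of the polymerase that starts each new strand, went from 2.61, 2.20 and 2.66 FPKM to 2.04, 1.61 and 2.01 (log2 fold change -0.39 ± 0.12, edgeR adjusted p = 0.0377). Pole, the catalytic subunit of the leading-strand polymerase, went from 1.39, 1.06 and 1.06 FPKM to 0.90, 0.76 and 0.88 (log2 fold change -0.45 ± 0.15, edgeR adjusted p = 0.0478). The groups did not overlap in either gene, yet both calls depended on the setting. For Pola1 the adjusted p was 0.0978 with LKO replicate 1 left out, 0.13 for LKO replicate 3, 0.0505 for DKO replicate 1 and 0.182 for DKO replicate 2, and its call was also lost in DESeq2 (0.16) and in limma (0.13). For Pole it was 0.235 with LKO replicate 1 left out, 0.08 for DKO replicate 1, 0.183 for DKO replicate 2 and 0.0828 for DKO replicate 3, and its call was also lost in DESeq2 (0.219) and in limma (0.239). The partner Pola2, at 7.21 ± 0.960 and 6.91 ± 0.228 FPKM, had a fold of LKO over DKO of 1.04 with a 95% interval from 0.902 to 1.19. Pold1, the lagging-strand polymerase subunit, and the primase genes Prim1 and Prim2 had log2 fold changes of -0.11, -0.28 and -0.08 and did not pass.

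Behind the fork, 3 of 10 genes of the clamp, the clamp loader and strand joining fell (30%, against 6.88% of all genes). Pcna, the clamp and by far the most abundant member, was at 95.03, 89.98 and 93.98 FPKM in LKO and 85.51, 81.76 and 74.31 in DKO. The groups did not overlap, and the log2 fold change was -0.20 ± 0.06 (edgeR adjusted p = 0.0182). Lig1, the ligase that seals Okazaki fragments, fell from 6.78, 7.09 and 6.62 FPKM to 5.35, 5.79 and 4.81 (log2 fold change -0.35 ± 0.09, edgeR adjusted p = 0.00969). Fen1, the nuclease that trims their ends, went from 12.48, 13.24 and 13.37 FPKM to 11.64, 10.73 and 10.64 (log2 fold change -0.23 ± 0.07, edgeR adjusted p = 0.0389). DKO replicate 3 was needed for each of the 3 calls: without it the adjusted p was 0.143 for Pcna, 0.0706 for Lig1 and 0.145 for Fen1. The Pcna call was also lost without LKO replicate 3 (adjusted p = 0.0533), the Lig1 call in DESeq2 (0.0729), and the Fen1 call without LKO replicate 2 (0.122), LKO replicate 3 (0.0908) or DKO replicate 2 (0.123), in DESeq2 (0.234) and with the replicate block (0.0574).

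None of the 5 clamp loader genes passed in edgeR (14.3% of all genes did). Rfc1, the large subunit, averaged 21.1 ± 2.05 FPKM in LKO against 18.7 ± 0.790 in DKO, with no overlap (edgeR adjusted p = 0.0846), and it passed without LKO replicate 2 (adjusted p = 0.0401). For Rfc2 the fold of LKO over DKO was 1.03 (95% interval 0.937 to 1.13), and for Rfc5 it was 1.01 (0.881 to 1.15). Rfc3 and Rfc4 had log2 fold changes of -0.09 ± 0.13 and -0.23 ± 0.21. Rpa1 and Rpa2 encode subunits of the protein that coats single-stranded DNA. Rpa1 averaged 22.2 ± 1.62 FPKM in LKO against 20.3 ± 1.14 in DKO, and Rpa2 4.19 ± 0.261 against 3.53 ± 0.334 (edgeR adjusted p = 0.271 and 0.32).

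Nucleotide supply was uneven. Rrm2, the ribonucleotide reductase subunit that is made mainly in S phase, fell from 6.28, 6.67 and 5.79 FPKM to 4.55, 3.82 and 3.86, without overlap (log2 fold change -0.60 ± 0.12, edgeR adjusted p = 0.00121). Its partner Rrm1, which is present through the cycle, fell less, from 15.17, 13.85 and 14.60 FPKM to 11.85, 12.87 and 12.27 (log2 fold change -0.23 ± 0.06, edgeR adjusted p = 0.0133). The Rrm1 call was lost without DKO replicate 1 (adjusted p = 0.0733) and in DESeq2 (0.059). The ratio of Rrm2 to Rrm1 FPKM within a library was 0.431 ± 0.0449 in LKO and 0.332 ± 0.0461 in DKO (exact two-sided permutation p = 0.1; 0.2 after Benjamini-Hochberg adjustment over the 4 ratios). The thymidylate synthase Tyms, the thymidine kinase Tk1 and the dUTPase Dut did not pass, with log2 fold changes of -0.03, -0.17 and -0.16. Tyms was at 9.58 ± 0.534 and 9.29 ± 0.836 FPKM, a fold of LKO over DKO of 1.02 with a 95% interval from 0.926 to 1.13.

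Among genes of S-phase control, the fall was in Uhrf1 and not in E2f1. Uhrf1, which brings the maintenance DNA methyltransferase to newly copied DNA, was at 6.55, 5.57 and 5.63 FPKM in LKO and at 3.52, 3.52 and 4.07 in DKO. The groups were far apart, with a log2 fold change of -0.66 ± 0.10 and the smallest adjusted p of the 41 genes (edgeR adjusted p = 6.47e-05). E2f1, an activating E2F factor, was at 18.2, 20.1 and 19.6 FPKM in LKO and 17.6, 19.9 and 19.9 in DKO (log2 fold change -0.002 ± 0.066, edgeR adjusted p = 0.991). Its fold of LKO over DKO was 1.002 with a 95% interval from 0.916 to 1.09. The cyclin E genes, which drive entry into S phase, did not pass: Ccne2 was at 2.17 ± 0.127 and 1.56 ± 0.279 FPKM (edgeR adjusted p = 0.0576; adjusted p = 0.0486 without DKO replicate 2) and Ccne1 at 3.35 ± 0.618 and 2.78 ± 0.430 (edgeR adjusted p = 0.375).

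**Figure D4:**
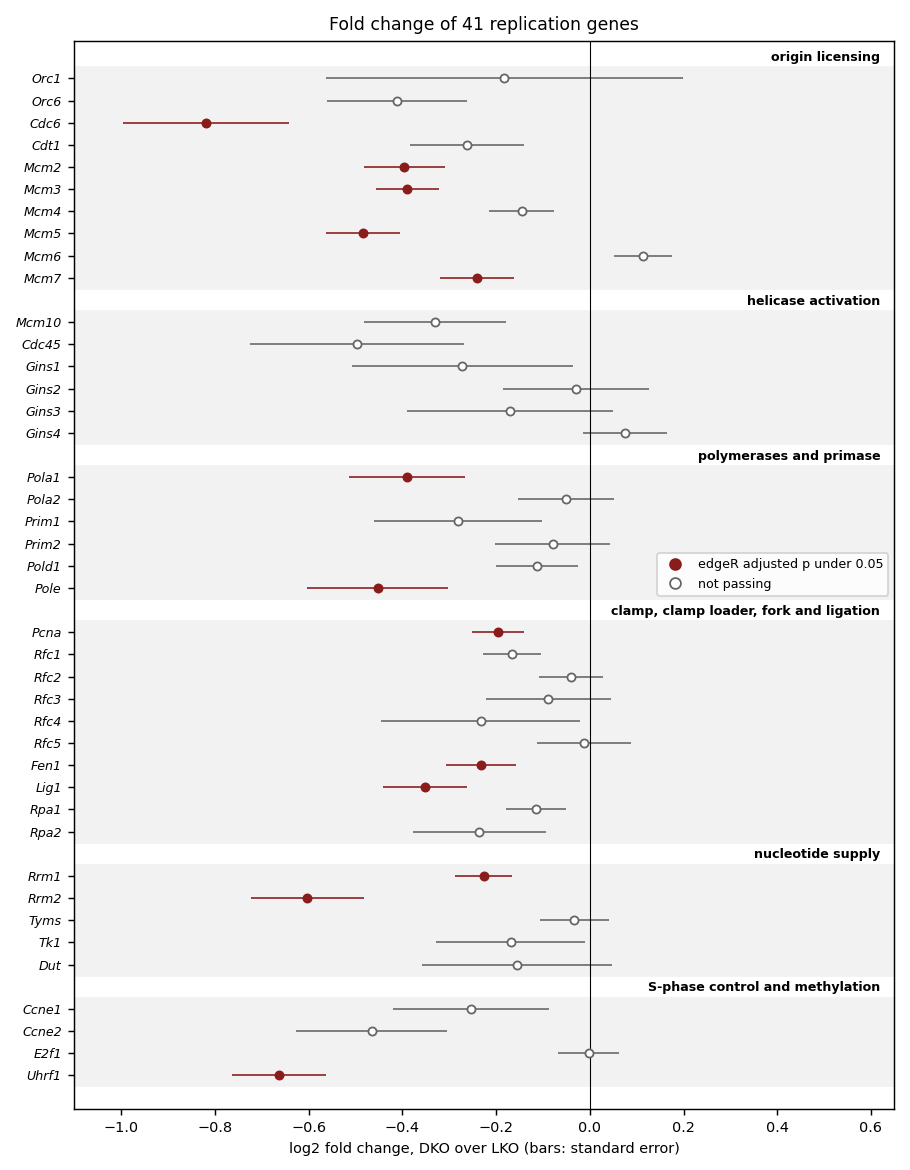
Log2 fold change of DKO over LKO for the 41 replication genes by role, with standard errors (filled dark red, edgeR adjusted p under 0.05; open, not passing). The 13 filled points all lie below 0, Mcm6 and Gins4 lie above 0, and E2f1 lies at 0.

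The calls of Mcm3, Mcm5, Rrm2 and Uhrf1 held in all 14 alternative fits. The count of members that fell was 7 in DESeq2, 5 in limma without a filter, where 2.26% did, and 11 with the replicate block, where 6.29% did. The 21 more abundant members had a median standard error of 0.07 on the log2 scale and 8 falls, and the 20 less abundant had a median standard error of 0.16 and 5 falls. Of the 41 genes, 10 overlap another tested gene in the annotation, among them Mcm7, Fen1 and Lig1 of those that fell. Whether counting used the strand is not given in the sources used here, and reads of such neighbours cannot then be told apart. Mcm5, Pola2, Tyms and E2f1 carried fractional counts in all 6 libraries, and Mcm10 in some; fractional values arise when a read is divided among genes or transcripts.

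Other genes of the replication machinery were examined as lists. None of 15 further origin and helicase factors passed in edgeR (14.3% of all genes did), DESeq2 or limma. At an unadjusted edgeR p under 0.05, 1 was lower (12.7% of all genes) and none higher (13.1%). The median log2 fold change of these factors was -0.12. This list includes the kinase pair Cdc7 and Dbf4 and the firing factor Topbp1. Of 21 tested fork factors, 4 fell (19.05%, against 6.88% of all genes) and none rose (7.42% of all genes). Their median was -0.12, and limma called 2 of them lower. Pclaf, a PCNA-binding protein, fell from 7.89 ± 0.605 to 5.31 ± 0.167 FPKM, and Top2a, which untangles copied DNA, from 9.87 ± 0.135 to 7.31 ± 0.309 (edgeR adjusted p = 0.000296 and 4.26e-05). Clspn, a checkpoint mediator at the fork, and Pold4, a small subunit of polymerase delta, also fell, with log2 fold changes of -0.73 and -0.21. Limma did not call Clspn (adjusted p = 0.0675) or Pold4 (0.0568). The Pold4 call was lost without LKO replicate 3 (adjusted p = 0.0528) or DKO replicate 2 (0.117). Of 13 factors that rebuild chromatin behind the fork, 4 fell (30.8%, against 6.88% of all genes) and none rose (7.42% of all genes). Their median was -0.12. The 4 were the histone chaperone genes Chaf1a and Asf1b, and Hells and Cdca7, which act together on nucleosomes. None of these 4 passed in DESeq2, and leaving out 1 library lowered the count to 2 without LKO replicate 1, LKO replicate 3, DKO replicate 2 or DKO replicate 3 and to 1 without DKO replicate 1.

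Of 21 nucleotide enzymes outside the 41, 3 fell (14.3%, against 6.88% of all genes) and 2 rose (9.52%, near the 7.42% of all genes), with a median log2 fold change of -0.13. At most 1 rose in 13 of 14 alternatives. Impdh2, which commits inosine monophosphate to guanine nucleotides, fell from 42.9 ± 0.638 to 35.7 ± 0.656 FPKM (edgeR adjusted p = 0.00253), and Ppat and Shmt2 also fell. The count of falls was 1 in DESeq2 and 1 without DKO replicate 2 or DKO replicate 3. Dck, a salvage kinase for deoxynucleosides, rose from 13.4 ± 0.820 to 16.3 ± 1.22 FPKM (edgeR adjusted p = 0.00615), but not without DKO replicate 3 (adjusted p = 0.0614). Samhd1, which breaks deoxynucleotides down, rose from 272 ± 5.51 to 292 ± 5.59 FPKM. Its adjusted p of 0.0479 lay close to the threshold and the call was lost in 12 of 14 alternatives.

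In the list of E2F factors, retinoblastoma proteins and cyclin-dependent kinase control, 1 of 26 tested genes rose (3.85%, against 7.42% of all genes) and 3 fell (11.5%, against 6.88%), so neither count stands far from the share over all genes. The gene that rose was Cdkn1a, which encodes p21, an inhibitor of cyclin-dependent kinases and of PCNA. It went from 70.1 ± 4.99 to 95.4 ± 7.01 FPKM (log2 fold change 0.45 ± 0.06, edgeR adjusted p = 7.3e-06). Myc, a growth-promoting transcription factor, fell from 13.1 ± 0.555 to 9.22 ± 0.463 FPKM (log2 fold change -0.50 ± 0.07, edgeR adjusted p = 5.18e-05). The calls of Cdkn1a and Myc held in all 14 alternatives. E2f2 and E2f8 fell with log2 fold changes of -0.58 and -0.48, calls that DESeq2 and limma did not make. The count of falls was 1 without LKO replicate 3 or DKO replicate 2. Rb1, Cdk2, Ccnd1 and Cdkn1b did not pass, with log2 fold changes between -0.09 and -0.03.

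Among 20 genes of mitosis, the stage after DNA copying, 5 fell (25%, against 6.88% of all genes) and none rose (7.42% of all genes). Their median log2 fold change was -0.27. Mki67, the gene of the proliferation antigen Ki-67, fell from 8.55 ± 0.373 to 6.53 ± 0.307 FPKM (edgeR adjusted p = 7.56e-05), and Bub1, Cenpf, Ccnb1 and Nusap1 were the others. The mitosis count was 1 in DESeq2, 2 in limma, 3 without LKO replicate 2 or DKO replicate 2, and 1 without DKO replicate 3. Of 16 genes of replication stress and the checkpoint, 2 fell (12.5%, against 6.88% of all genes) and none rose (7.42% of all genes). Their median was -0.20, and DESeq2 called 0. Brca1, a repair gene, fell with a log2 fold change of -0.46 (edgeR adjusted p = 0.0226), a call lost without LKO replicate 1 (0.0571), LKO replicate 2 (0.0676), DKO replicate 1 (0.0762) or DKO replicate 2 (0.0718).

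Marker genes of cell types differed between the same libraries. Of 10 macrophage markers, 5 rose (50%, against 7.42% of all genes) and 1, Adgre1, fell (10%, against 6.88%). DESeq2 called 5 higher and 1 lower, and limma 5 higher and 0 lower. The summed FPKM of the list was between 9997 and 10710 in LKO and between 11180 and 12360 in DKO. This sum averaged 10400 in LKO and 11840 in DKO, and Lyz2 alone averaged 6105 and 7616. The sum therefore mainly follows Lyz2 and does not show a rise across the list. Of 9 neutrophil markers tested 7 fell (77.8%, against 6.88% of all genes). DESeq2 called 5 of them lower and limma 6. The sum of all 10 was between 577 and 638 FPKM in LKO and between 373 and 415 in DKO. Of 6 lymphocyte markers tested 4 fell (66.7%, against 6.88% of all genes), all of them B-cell genes. DESeq2 and limma each called 4 lower. Of 10 granulocyte and monocyte progenitor markers, 6 were tested and 2, Elane and Sox4, fell (33.3%, against 6.88% of all genes). DESeq2 called 0 of this list lower and limma 1. Elane averaged 31.7 counts per library and Sox4 25. The summed FPKM of the list was between 13.8 and 15.3 in LKO and between 10.0 and 11.4 in DKO. The group means of Kit and Cd34, which mark early progenitors, were at most 0.207 FPKM. Stromal markers went the other way, with 7 of 8 tested higher (87.5%, against 7.42% of all genes). DESeq2 and limma each called 5 of them higher. Of 10 erythroid markers, 5 were listed in none of the files, among them Slc4a1, and the 1 that was tested did not pass. The part of these cell types in the lower replication genes was not tested.

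**Figure D5:**
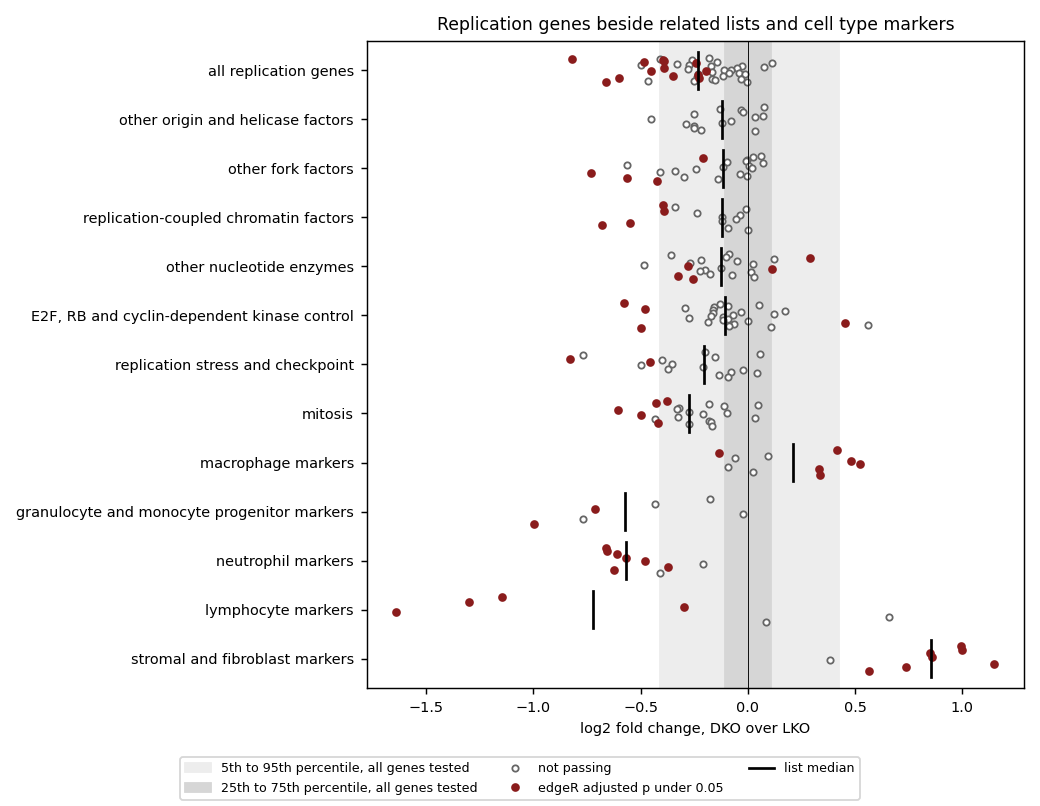
Log2 fold changes of DKO over LKO for the tested genes of each list (filled, edgeR adjusted p under 0.05; black line, list median; shading, percentiles over all genes tested). The median of the replication genes is -0.23 and that of mitosis genes -0.27, while the medians of macrophage and stromal markers lie above 0 and that of neutrophil markers below.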

How the data were processed

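The deposited tables give, per the file headers, an expected count and an FPKM for each gene. The expected counts were estimated by the authors, and between 23.2% and 23.6% of a library's values are fractional. The FPKM values were scaled by the authors to transcript length and library size. Genes absent from a table were set to 0. Per the submitters' processing notes, Bowtie 0.12.2 and mm8 were used; the counting tool is not given in the sources used here. Symbols came from a RefSeq table of GRCm38, which named 16832 of 16871 gene numbers.

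The counts were rounded and fitted with edgeR 4.0.16 (quasi-likelihood, filterByExpr, TMM, no block) under R 4.3.3, and p-values were Benjamini-Hochberg adjusted across all 11809 genes, with 0.05 as threshold. Standard errors were derived from fold change and F, and 95% intervals are normal ones from them. Means ± SD are of FPKM, n = 3. Alternatives were DESeq2 1.42.0, its size factors in edgeR, no count filter, a replicate block, limma 3.58.1 on log2(FPKM + 1) where 3 libraries reached an FPKM of 1 or more, a pseudocount of 0.1, no such filter, quantile normalization, and omission of each library. Folds on that scale understate changes of low genes. Fits were tested on simulated data. Each library counted as 1 sample. Chi-square per degree of freedom was 1.68 to 3.71 between libraries of a group and 8.30 to 14.9 across groups. These values do not show whether the libraries of a group are from different mice.

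Named genes are the 41 members, Aldh2, up to 4 genes of smallest p of each related list, all genes of a count of 5 or fewer, and defining markers; a few such genes are not reported here. Members and lists were chosen with earlier results of these data known. Of 5 dendritic cell markers tested, 1 was higher (20%, against 7.42% of all genes) and 1 lower (20%, against 6.88%). Of the mast cell and basophil markers 1 was tested and did not pass. These lists are given only here.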

Additional observations from a re-analysis of the deposited data

How the results depend on the processing

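The number of members that fell was 13, and it was 7 in DESeq2 and 5 in limma without a filter. Leaving out 1 library gave between 8 and 12, the lowest without DKO replicate 3. No member was called higher in any of the 14 alternatives. The median log2 fold change lay between -0.25 and -0.20 when a library was left out. Aldh2 kept its call throughout, between -5.02 and -4.98 without 1 library. With the replicate number as a replicate block, 11 members fell (Mcm7 and Fen1 were lost). Deviations of same-numbered libraries from their group means correlated by 0.0179, -0.056 and -0.0273. These values show no strong effect shared by same-numbered libraries, but they cannot exclude that such libraries were prepared together. Of 571 fits of single members, 503 kept their direction and side of the threshold, 48 lost a call and 4 gained one. The other 16 changed sign, all in genes that did not pass and all when 1 library was left out. Without LKO replicate 1 this was Prim2 (0.0088). Without LKO replicate 2 these were Gins2 (0.024), Rfc2 (0.00064) and E2f1 (0.030). Without LKO replicate 3 these were Orc1 (0.072), Gins2 (0.094), Pola2 (0.011), Rfc5 (0.057), Tyms (0.0068) and E2f1 (0.0040). Without DKO replicate 1 these were Tyms (0.019) and E2f1 (0.053). Without DKO replicate 2 these were Gins3 (0.027) and Rfc5 (0.048). Without DKO replicate 3 these were Rfc3 (0.048) and Dut (0.045). The lowest values over the 6 omissions were Orc1 -0.43, Gins2 -0.19, Gins3 -0.43, Pola2 -0.16, Prim2 -0.18, Rfc2 -0.073, Rfc3 -0.17, Rfc5 -0.084, Tyms -0.11, Dut -0.27 and E2f1 -0.044. These omissions leave 5 libraries; any other cause was not tested. The 20 less abundant members had a median count of 70.2 per library and the 21 others of 294; the effect of depth on the calls was not tested.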
